A study of Mus musculus with 16 samples.

Results

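Quadriceps muscle of mice labelled Mfn2 KO was compared with that of control mice at 22 months of age, with 4 old KO arrays against 4 old control arrays and 1 mouse per array. These 8 arrays are all those labelled old among the 16 arrays of the study. The other 8 came from control and Mfn2 KO mice aged 6 months, 4 of each. All mice were on standard chow, and the muscle was snap frozen after excision. The promoter or Cre line behind the KO, the deleted exons, and the strain are not given in the sources used here. Every probe set with a single gene symbol was considered, and the one that was brightest over the 16 arrays stood for its gene, which gave 17097 genes. All levels are log2 signals as deposited and all differences are log2 KO minus control, so that a difference of 1 is a doubling.

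Mitofusin 2 is a GTPase of the outer mitochondrial membrane. Together with its relative mitofusin 1 it fuses the outer membranes of neighbouring mitochondria, and it also sits at contacts between mitochondria and the endoplasmic reticulum and acts as a PINK1 and Parkin substrate in mitophagy, the removal of damaged mitochondria. Skeletal muscle, with its dense mitochondrial network and heavy use of fatty acids, is one of the tissues with the highest mitofusin 2 levels.

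Arrays carry the replicate number of their titles, from 1 to 4, and arrays with the same number resembled each other across groups, so that the number entered the fit as a block (the replicate block). The labels also give a mouse family. Old control mice 1 to 4 came from families A, B, B and Other, and old KO mice 1 to 4 from A, A, A and Other, so that numbers 1 and 4 compare mice of the same family label while numbers 2 and 3 set KO mice of family A against control mice of family B. The median over genes lay between 5.09 and 5.22 in the 8 arrays. The tissue label was checked with fibre markers: Ckm, the muscle creatine kinase, lay between 12.04 and 12.27, and the mean of 9 fibre markers lay between 11.76 and 11.93. The difference between the 3 prime and 5 prime signals of 5 control transcripts, which can follow RNA quality, was higher in KO than in control means by 0.015 to 0.074. Both groups are whole muscle, so fewer cells of a type and less RNA per cell cannot be told apart. Mice are the replicates, and their number limits the precision.

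No gene passed an adjusted p under 0.05 in old KO against old control muscle (limma with Benjamini-Hochberg adjustment, 0 of 17097 genes, 0%). At an unadjusted p under 0.05 there were 1131 genes, or 6.62%, of which 549 were higher in KO (3.21% of all genes) and 582 lower (3.4%). Without the replicate block these were 103 and 92 genes, and again 0 passed. The smallest adjusted p with the block was 0.380. All values that follow are therefore given as measured differences, with unadjusted p-values of limma that do not allow for the number of genes tested. The KO arrays lay wholly above the control arrays for 74 genes (0.433%) and wholly below them for 81 (0.474%). KO was higher within 4 of 4 numbers for 1105 genes (6.46%) and lower within 4 of 4 for 1210 (7.08%). Over all genes the 4 differences between mice of the same number resembled each other little. Their correlations across the 17097 genes lay between -0.13 and 0.19, with a median of 0.07. These correlations are across genes, which are not independent, and no array is shared between the numbers.

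Mfn2 itself stood at 8.52, 8.67, 8.34 and 9.18 in old control mice 1 to 4 and at 8.31, 8.01, 6.32 and 8.32 in old KO mice 1 to 4. All KO arrays lay below all control arrays, and KO 3 lay far below the other KO arrays. The fitted difference was -0.94 (SE 0.25, limma unadjusted p = 0.00200, adjusted p = 0.637), and without KO 3 it was -0.59 (unadjusted p = 0.00538). With family in the fit it was -0.63 (SE 0.35, limma unadjusted p = 0.101). Without the replicate block the limma unadjusted p was 0.0254. An exact two-sided permutation over the 70 splits of the 8 mice gave p = 0.0286, and one over swaps within the numbers p = 0.125, each the smallest its design allows. The dimmer Mfn2 probe set differed by 0.13, at low mean levels of 4.30 in control and 4.42 in KO muscle. It was higher in KO within every number, and the permutation over swaps within the numbers gave p = 0.125 for it too. With the brighter probe set a signal of 6.32 to 8.32 was still measured in KO muscle. Its position relative to the deleted part was not analysed here.

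Of 26 measured genes of mitochondrial fusion and fission, 21 were lower in old KO muscle, with a median difference of -0.09 against -0.004 over all genes. Mfn2 itself was 1 of 3 with an unadjusted p under 0.05 in the lower direction, against 3.4% of all genes, and 0 were in the higher direction. None passed over all genes. The other two were Pld6 and Oma1. Pld6, the mitochondrial phospholipase MitoPLD whose lipid product favours fusion, stood at 3.24, 3.32, 3.73 and 3.38 in control mice and at 3.08, 3.21, 3.06 and 3.16 in KO mice. Every KO array lay below every control array, at signals near the low end of the array, and the difference was -0.29 (SE 0.08, unadjusted p = 0.00254). Oma1, the stress-activated protease that cleaves OPA1, was lower by 0.17 on average (SE 0.07, unadjusted p = 0.0338), with lower KO values in 3 of 4 numbers. Mief2, an adaptor that brings the fission GTPase to mitochondria, stood at 8.77, 8.94, 8.65 and 8.67 in control mice and at 8.74, 8.71, 8.25 and 8.44 in KO mice, a difference of -0.22 (SE 0.10, unadjusted p = 0.0545). KO was lower within every number, though KO 1 and KO 2 lay inside the control range.

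Mfn1, the other outer membrane fusion GTPase, stood at 9.65, 9.999, 9.84 and 9.83 in control and at 10.15, 10.07, 9.69 and 9.85 in KO muscle. The groups overlapped, and the difference was 0.11 (SE 0.10, unadjusted p = 0.297). Opa1, which fuses the inner membranes, differed by -0.11 (SE 0.13, unadjusted p = 0.400), with KO 3 lowest at 8.23. Without KO 3 its difference was 0.01. Number 3 had the lowest values of the whole list, with a list median of -0.25 against 0.03, -0.02 and -0.08 for numbers 1, 2 and 4. The list median was -0.01 without number 3 and -0.003 with family in the fit, and it was -0.01 over numbers 1 and 4 alone, which was tried only after the data had been seen. Family and genotype cannot be told apart within numbers 2 and 3. Family B occurred only in old control mice 2 and 3, so any fit with family rests mainly on control 1 and control 4. Such a fit is thus close to the comparison of numbers 1 and 4 and not a separate check. The label Other was treated as 1 family.

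**Figure D1:**
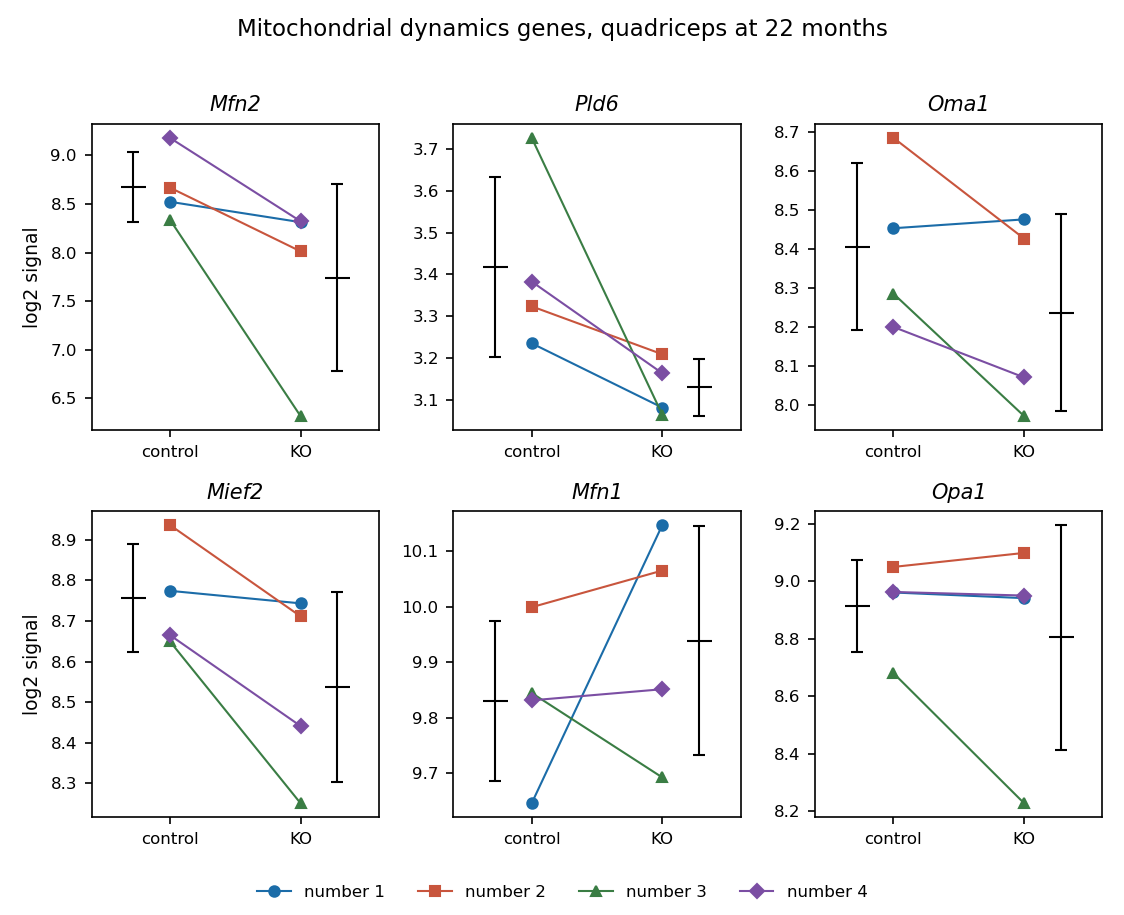
Log2 signal of 6 mitochondrial dynamics genes in quadriceps at 22 months, control on the left and KO on the right of each panel. Coloured points are single mice, lines join mice of the same replicate number, and black bars give the mean and SD of 4 mice. KO 3 (green triangle) is the lowest KO array for Mfn2, at 6.32, and for Opa1, at 8.23.

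Genes of the respiratory chain and of mitochondrial translation differed by small amounts that followed the number. Complex I subunits were lower in 27 of 32 genes (median -0.03), complexes II to V in 26 of 40 (median -0.02), mitochondrial ribosomal proteins in 39 of 48 (median -0.08) and tricarboxylic acid cycle genes in 17 of 24 (median -0.03). In each of these lists 0 genes passed over all genes, and 1, 0, 2 and 1 had an unadjusted p under 0.05, all of them lower, against 3.4% of all genes in that direction. Number 1 had positive medians in all 4 of these lists, at 0.13, 0.14, 0.05 and 0.08, and number 3 negative ones, at -0.16, -0.12, -0.25 and -0.13. Ndufb5, a complex I subunit, stood at 10.91, 11.0002, 11.07 and 10.97 in control mice and at 10.93, 10.94, 10.61 and 10.74 in KO mice (difference -0.18, SE 0.07, unadjusted p = 0.0201). KO 3 and KO 4 lay below the control arrays and KO 1 and KO 2 within their range. Mrps18b, of the small mitochondrial ribosomal subunit, differed by -0.22 (SE 0.08, unadjusted p = 0.0158). Sucla2, a subunit of succinyl-CoA synthetase, was lower in every KO array than in any control array (difference -0.13, SE 0.06, unadjusted p = 0.0424), but its other probe set differed by 0.02.

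Mitophagy and autophagy genes clear damaged mitochondria. Of 12 mitophagy receptors and regulators 5 were higher and 7 lower (median -0.02), and 1, the lower gene Usp30, had an unadjusted p under 0.05 (3.4% of all genes in that direction). Usp30, the deubiquitinase that counters Parkin, differed by -0.28 (SE 0.11, unadjusted p = 0.0200), with a second probe set at 0.004. Pink1, the kinase that marks damaged mitochondria, differed by -0.04 (SE 0.05, unadjusted p = 0.430). Of 27 genes of the autophagy machinery 13 were higher and 0 had an unadjusted p under 0.05 in either direction. The autophagosome protein Gabarapl1 differed by 0.17 (SE 0.09, unadjusted p = 0.0782). Atrophy genes and ubiquitin ligases likewise had 9 of 20 higher and 0 with an unadjusted p under 0.05. The muscle ubiquitin ligases Trim63 and Fbxo32 differed by 0.21 (SE 0.18, unadjusted p = 0.257) and 0.08 (SE 0.11, unadjusted p = 0.463), and both were negative with family in the fit, at -0.06 and -0.07.

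The gene with the smallest p in the pathway lists belongs to oxidant defence. Srxn1, sulfiredoxin, which repairs over-oxidised peroxiredoxins and is a classical target of the transcription factor NRF2, stood at 7.46, 7.84, 7.61 and 7.52 in old control mice and at 8.08, 8.45, 8.61 and 8.69 in old KO mice. The lowest KO array lay above the highest control array. The difference was 0.85 (SE 0.16, limma unadjusted p = 9.05e-05, adjusted p = 0.380), or 1.80-fold. The 3 other probe sets of Srxn1 were higher too, by 0.81, 1.08 and 1.11 in the group means. In young mice Srxn1 differed by 0.07, and the difference between the ages was 0.78 (unadjusted p = 0.00335, adjusted p = 0.641). The RefSeq promoter of Srxn1 (GRCm38.p6, chr2:152105274-152105573, plus strand, 250 bases before to 50 after the start) is shown for that reason. Capitals mark its match to the antioxidant response element core TGACNNNGC, searched on both strands, which starts at position 28 after the gene start.

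Srxn1: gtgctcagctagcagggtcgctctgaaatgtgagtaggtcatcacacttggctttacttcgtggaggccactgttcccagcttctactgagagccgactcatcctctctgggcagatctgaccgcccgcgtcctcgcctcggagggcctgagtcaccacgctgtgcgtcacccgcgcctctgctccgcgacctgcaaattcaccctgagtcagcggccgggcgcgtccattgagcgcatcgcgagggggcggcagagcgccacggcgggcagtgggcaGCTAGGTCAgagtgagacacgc

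The core occurred in 6 of 28 promoters of the antioxidant list, or 21.43%, against 12.39% of all 32851 promoters of the same length. It was in 6 of 28 promoters of the interferon response list (21.43%) and 10 of 28 of the immediate early list (35.71%), both described below. The antioxidant list thus did not stand out among these lists for this core. The core is short, other forms of the element were not searched, and a match is a description only.

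Of 27 measured antioxidant and NRF2 target genes, 19 were higher in old KO muscle (median 0.04), 8 of them with an unadjusted p under 0.05, against 0 lower and 3.21% of all genes in the higher direction. None passed over all genes. Cat, the catalase that removes hydrogen peroxide, stood at 8.39, 8.46, 7.82 and 8.17 in control and at 8.91, 8.73, 8.29 and 8.56 in KO muscle. KO was higher within every number, and the groups overlapped because of the differences between numbers (difference 0.41, SE 0.08, unadjusted p = 0.000200, adjusted p = 0.380). Its second probe set differed by 0.40, and in young mice Cat differed by 0.35. Gclc, the catalytic subunit of the rate-limiting enzyme of glutathione synthesis, stood at 5.93, 6.31, 5.51 and 5.61 against 6.66, 6.49, 5.93 and 5.92 (difference 0.41, SE 0.10, unadjusted p = 0.00116). Nfe2l2, which encodes NRF2 itself, stood at 6.15, 6.14, 5.71 and 5.66 against 6.53, 6.54, 5.95 and 5.95, again higher in KO within 4 of 4 numbers (difference 0.32, SE 0.09, unadjusted p = 0.00213). Sod3, the extracellular superoxide dismutase, differed by 0.48 (SE 0.16, unadjusted p = 0.00937) and Txnrd1, the cytosolic thioredoxin reductase, by 0.23 (SE 0.10, unadjusted p = 0.0405), each higher within 4 of 4 numbers. The other probe sets of Nfe2l2 and Sod3 differed by 0.03 and 0.19, and that of Sod3 was lower in KO in number 2. The list median was between 0.04 and 0.11 in each number, and 0.03 with family in the fit. Without the replicate block 2 of the 27 genes had an unadjusted p under 0.05.

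**Figure D2:**
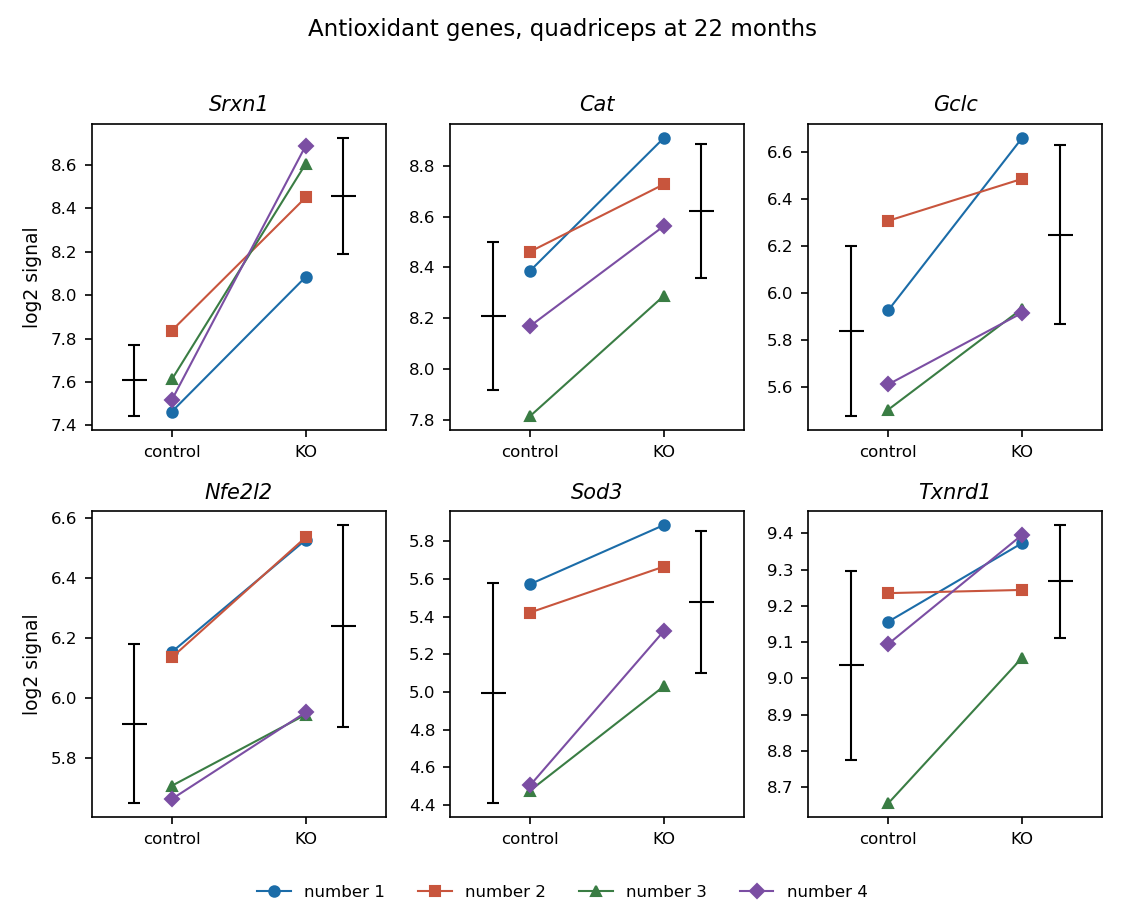
Log2 signal of 6 antioxidant genes in quadriceps at 22 months, control on the left and KO on the right. Points are single mice, lines join the same replicate number, and black bars give mean and SD of 4 mice. All 24 lines slope upward, and for Srxn1 the KO range of 8.08 to 8.69 lies above the control range of 7.46 to 7.84.

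Interferon response genes defend cells against viruses and intracellular microbes and are switched on through STAT and IRF factors. Of 32 measured genes, 31 were higher in old KO muscle, with a median of 0.35 and a range from -0.06 to 2.58. Of these 16 had an unadjusted p under 0.05 and 3 had KO arrays wholly above the control arrays, against 3.21% and 0.433% of all genes. None passed over all genes. The promoters of Tgtp1 and Ifit3, from RefSeq (GRCm38.p6, chr11:48992197-48992496, minus strand, and chr19:34583279-34583578, plus strand), are shown because they are the members described here whose window holds the interferon response element (GAAA repeated after any 2 bases, on either strand), marked in capitals.

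Tgtp1: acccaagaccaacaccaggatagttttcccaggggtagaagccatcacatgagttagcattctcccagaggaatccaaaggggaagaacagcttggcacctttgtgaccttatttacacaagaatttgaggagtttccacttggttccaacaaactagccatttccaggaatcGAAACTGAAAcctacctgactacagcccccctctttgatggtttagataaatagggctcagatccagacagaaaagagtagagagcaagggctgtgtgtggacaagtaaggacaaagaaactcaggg
Ifit3: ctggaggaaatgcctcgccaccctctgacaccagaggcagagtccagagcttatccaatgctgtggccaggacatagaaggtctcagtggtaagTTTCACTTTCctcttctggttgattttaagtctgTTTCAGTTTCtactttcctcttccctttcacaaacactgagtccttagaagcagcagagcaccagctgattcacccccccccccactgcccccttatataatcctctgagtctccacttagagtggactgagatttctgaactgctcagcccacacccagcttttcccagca

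The element starts at position -77 in Tgtp1, and the first of 2 matches starts at position -156 in Ifit3. The Tgtp1 window also holds 1 match to the gamma-activated site TTCNNNGAA, left in lower case. Of the 32 genes 23 had a promoter entry, with 28 promoters in all. The interferon response element was in 12 of the 28, or 42.86%, against 3.44% of all promoters, and the gamma-activated site in 6, or 21.43%, against 8.3%. The letters of the motifs can share bases, and members of such lists are partly known through these elements.

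Iigp1, an immunity-related GTPase that attacks parasite vacuoles, stood at 4.92, 4.27, 4.61 and 4.61 in old control mice and at 8.26, 5.87, 9.27 and 5.36 in old KO mice. All KO arrays lay above all control arrays, with KO 1 and KO 3 far above KO 2 and KO 4. The difference was 2.58 (SE 0.64, unadjusted p = 0.00123, adjusted p = 0.637), and the second probe set differed by 2.09. Tgtp1, a related GTPase with a near-identical copy in the genome, stood at 4.14, 3.91, 4.09 and 4.09 against 7.58, 4.70, 6.22 and 4.18 (difference 1.61, SE 0.41, unadjusted p = 0.00161). The 4 control arrays were within 0.3 of each other, KO 4 was just above them, and KO 1 was highest. Ifi47, another GTPase of this class, stood at 3.88, 3.90, 4.35 and 4.09 against 5.86, 4.37, 5.41 and 4.58 (difference 0.998, SE 0.22, unadjusted p = 0.000454). The groups did not overlap, and KO 2 was only just above control 3. Ifit3, an interferon-induced gene that also has a near-identical copy, differed by 0.68 (SE 0.20, unadjusted p = 0.00416) and was higher in KO in 3 of 4 numbers. Lgals9, an interferon-induced galectin outside the list, differed by 0.60 (SE 0.14, unadjusted p = 0.000929).

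Genes of antigen presentation, by which cells show peptides to T cells, were higher in 18 of 18 measured genes (median 0.48), 10 with an unadjusted p under 0.05, against 3.21% of all genes, and 0 past the adjusted threshold. In 0 of the 18 did the groups stand apart without overlap, against 0.433% of all genes. Nlrc5, the transactivator of class I genes, stood at 4.06, 3.77, 4.21 and 4.45 in control and at 5.36, 4.28, 5.58 and 4.77 in KO muscle. KO was higher within every number, with KO 2 inside the control range (difference 0.88, SE 0.17, unadjusted p = 0.000126, adjusted p = 0.380). The immunoproteasome subunit Psmb8, which shapes peptides for class I molecules, stood at 7.18, 7.02, 5.56 and 6.05 against 8.44, 7.21, 7.69 and 6.43 (difference 0.99, SE 0.26, unadjusted p = 0.00184). Its partner Psmb9 differed by 0.60 (SE 0.16, unadjusted p = 0.00221), with 1 of its 2 other probe sets opposite in sign. The class I heavy chain gene H2-K1 stood at 11.03, 10.67, 10.51 and 10.50 against 11.35, 10.79, 11.65 and 10.87 (difference 0.49, SE 0.14, unadjusted p = 0.00321). H2-D1 differed by 0.48 (SE 0.14, unadjusted p = 0.00420) and H2-Q4 by 1.37 (SE 0.41, unadjusted p = 0.00525), each higher in 4 of 4 numbers. Class I genes are close copies of one another, so their probe sets may share signal.

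Both immune lists rested on some mice more than others. The interferon list had medians of 0.87, 0.10, 0.29 and 0.00 in numbers 1 to 4, and antigen presentation 0.31, 0.10, 1.07 and 0.34. Without KO 1 the interferon median was 0.16, and without KO 3 the antigen presentation median was 0.27. Without KO 1 and KO 3 together, which was tried only after the data had been seen, the medians were 0.05 and 0.16, with 3 and 1 genes at an unadjusted p under 0.05. With family in the fit they were 0.35 and 0.28, with 5 and 2 such genes, and without the replicate block there were 8 and 5. Macrophage markers were higher in 13 of 16 genes (median 0.08). Their mean level ranged from 5.48 to 6.11 over the control arrays and from 5.64 to 6.08 over the KO arrays, and their medians by number were 0.04, -0.23, 0.51 and 0.14. T and NK cell markers were higher in 7 of 11 genes, with mean levels of 4.02 to 4.41 in control and 4.07 to 4.52 in KO arrays. The part of these cells in the immune lists was not tested.

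**Figure D3:**
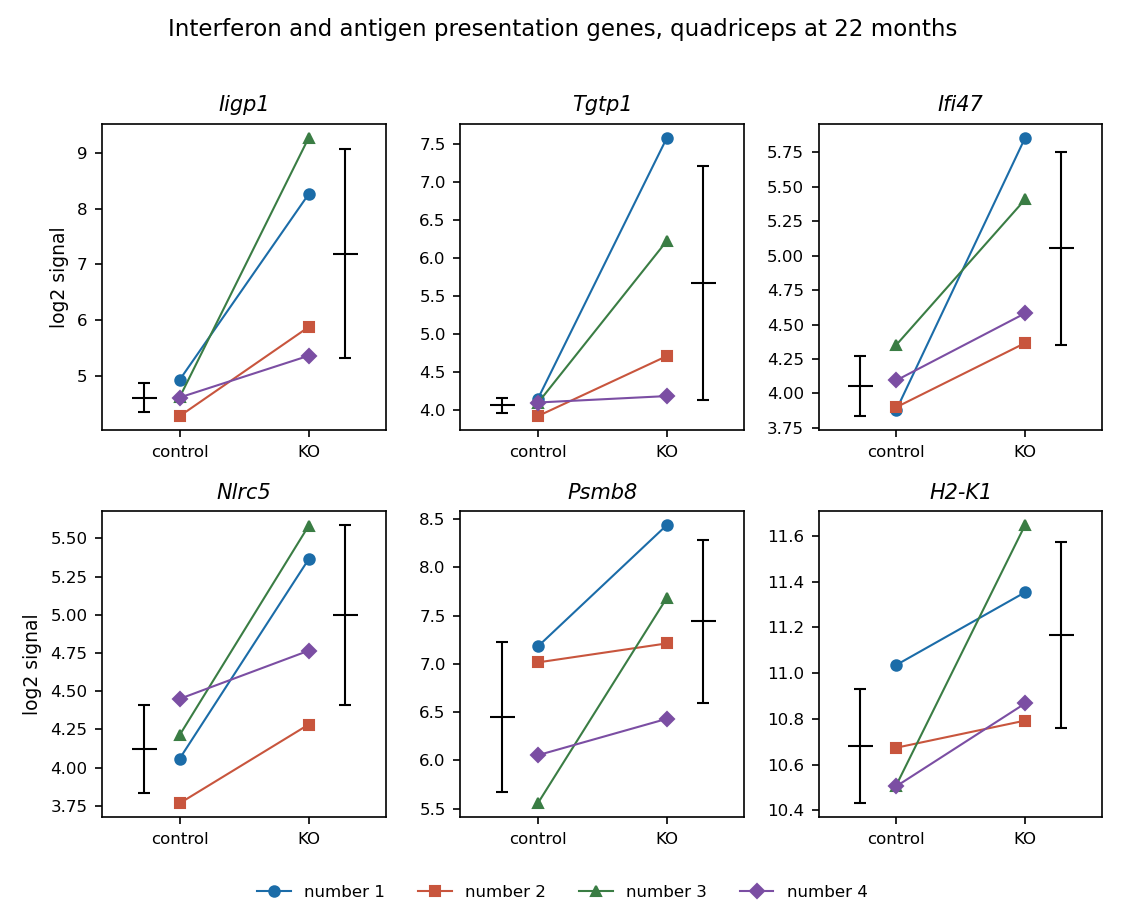
Log2 signal of 6 interferon and antigen presentation genes in quadriceps at 22 months, control on the left and KO on the right. Points are single mice, lines join the same replicate number, and black bars give mean and SD of 4 mice. KO 1 and KO 3 hold the highest 2 KO values in all 6 panels, and for Iigp1 the KO mice spread from 5.36 to 9.27 while the control mice lie between 4.27 and 4.92.

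Immediate early genes, transcription factors and regulators that rise within minutes of growth, contraction or stress signals, were higher in 24 of 27 measured genes (median 0.37). Of these 10 had an unadjusted p under 0.05, 3 had KO arrays wholly above the control arrays and 11 were higher within 4 of 4 numbers, against 3.21%, 0.433% and 6.46% of all genes. None passed over all genes. Fos, a subunit of the AP-1 factor, stood at 8.40, 7.26, 5.80 and 4.84 in old control mice and at 8.99, 9.35, 9.44 and 9.03 in old KO mice. The KO mice lay close together and all above the control mice, whose own values spread over more than 3 log2 units. The difference was 2.63 (SE 0.61, unadjusted p = 0.000712, adjusted p = 0.637). Btg2, an antiproliferative gene of this class, stood at 7.47, 7.24, 6.69 and 6.996 against 7.78, 8.05, 7.88 and 8.12 without overlap (difference 0.86, SE 0.22, unadjusted p = 0.00169), and its other probe set differed by 0.87. Egr2, a zinc finger factor, stood at 3.95, 4.63, 4.01 and 4.12 against 4.43, 5.01, 4.51 and 4.73, higher within each number by a similar amount (difference 0.50, SE 0.10, unadjusted p = 0.000238, adjusted p = 0.407), while its other probe set differed by 0.08.

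Jund, the JunD subunit of AP-1, differed by 0.51 (SE 0.13, unadjusted p = 0.00167), with its other probe set at -0.05. Ier2 and Junb, further early response genes, differed by 0.28 (SE 0.09, unadjusted p = 0.00664) and 0.27 (SE 0.09, unadjusted p = 0.0121), both higher within 4 of 4 numbers. The list median was 0.14, 0.38, 0.50 and 0.45 in numbers 1 to 4, 0.27 with family in the fit and 0.37 without KO 1 and KO 3. Without the replicate block 6 of the 27 genes had an unadjusted p under 0.05. One of the 5 RefSeq promoters of Egr2 (GRCm38.p6, chr10:67537316-67537615, plus strand) is shown as an example of the serum response element, through which growth signals act on early genes. Capitals mark the match, which starts at position -72.

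Egr2: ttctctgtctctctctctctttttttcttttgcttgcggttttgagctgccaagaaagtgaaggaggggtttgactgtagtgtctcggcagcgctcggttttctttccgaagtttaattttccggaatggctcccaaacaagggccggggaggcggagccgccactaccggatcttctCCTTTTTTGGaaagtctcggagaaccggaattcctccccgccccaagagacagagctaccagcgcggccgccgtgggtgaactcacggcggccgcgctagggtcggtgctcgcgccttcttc

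The serum response element, searched by its CArG box on both strands, was in 4 of 28 promoters of the list, or 14.29%, against 1.63% of all promoters. All 4 are alternative promoters of Egr2, and the Fos window holds 0 matches.

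**Figure D4:**
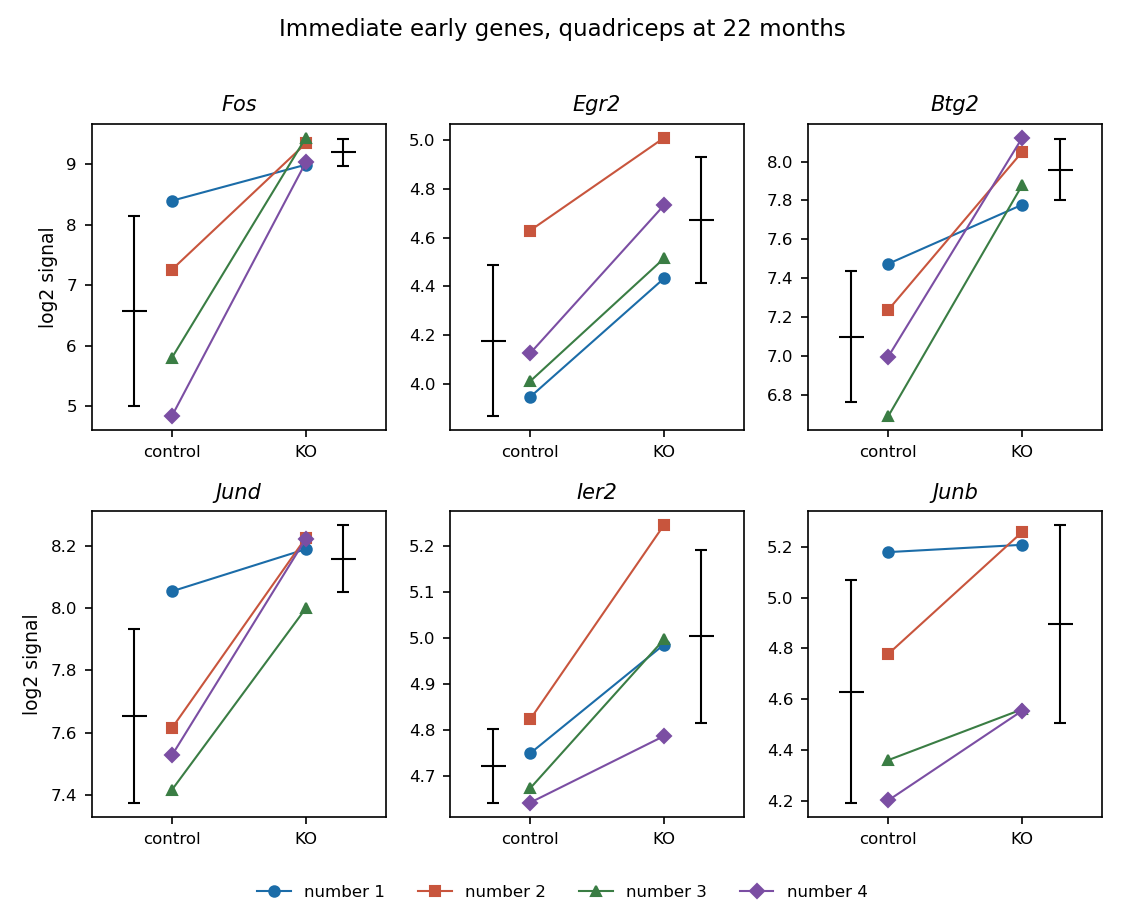
Log2 signal of 6 immediate early genes in quadriceps at 22 months, control on the left and KO on the right. Points are single mice, lines join the same replicate number, and black bars give mean and SD of 4 mice. Control mice spread from 4.84 to 8.40 for Fos while the KO mice lie between 8.99 and 9.44, and all 24 lines slope upward.

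Genes of the circadian clock differed by number in these mice, with medians of -0.60, 0.22, 0.14 and 0.23, and glucocorticoid targets had medians of -0.39, 0.23, 0.06 and 0.31. Both lists had 0 genes with an unadjusted p under 0.05. Their part in the immediate early differences was not tested.

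Folding of secreted proteins in the endoplasmic reticulum was represented by 24 measured genes of the unfolded protein response, of which 22 were higher (median 0.11), 3 of them with an unadjusted p under 0.05 (3.21% of all genes), or 0 without the replicate block. The number medians were 0.08, -0.01, 0.22 and 0.09, and the list median was 0.06 without control 3, without control 4 or without number 3, which left 1, 2 and 0 such genes. Hspa5, the chaperone BiP, stood at 8.28, 8.38, 7.11 and 7.65 in control and at 8.60, 8.33, 8.02 and 8.05 in KO muscle (difference 0.39, SE 0.14, unadjusted p = 0.0137). The KO values lay within the control range except KO 1. Hsp90b1, a second chaperone of this compartment, differed by 0.25 (SE 0.09, unadjusted p = 0.0153) and the secreted factor Manf by 0.34 (SE 0.15, unadjusted p = 0.0327). Sec61a1, the channel through which proteins enter the compartment, stood at 7.60, 7.59, 6.68 and 6.93 against 7.89, 7.88, 7.27 and 7.38, higher within each number (difference 0.40, SE 0.10, unadjusted p = 0.000821), with 1 of its 3 other probe sets opposite in sign. Serpinh1, the collagen chaperone, differed by 0.70 (SE 0.19, unadjusted p = 0.00214). Its other probe set differed by only 0.10 and was lower in KO in numbers 3 and 4. Collagens and other matrix genes were higher in 29 of 38 genes (median 0.10), 5 of them with an unadjusted p under 0.05 against 3.21% of all genes. Serpinh1 had the largest difference among them by its brighter probe set. Trib3, a pseudokinase induced by the ATF4 stress pathway, differed by 0.26 (SE 0.10, unadjusted p = 0.0189). Of 27 measured genes of the integrated stress response and ATF4 target list 18 were higher (median 0.08). An unadjusted p under 0.05 was found for 2 of these, against 3.21% of all genes. In the cytosol, the small heat shock protein Hspb1 stood at 10.86, 11.01, 11.03 and 10.95 against 11.47, 11.03, 11.34 and 11.05 (difference 0.26, SE 0.08, unadjusted p = 0.00585). KO 1 and KO 3 were the high arrays there as well. Of 19 measured heat shock genes 14 were higher (median 0.10). An unadjusted p under 0.05 was found for 2 higher genes, Hspb1 and Hspa8, and for 2 lower ones, Ahsa1 and Dnajb5, against 3.21% and 3.4% of all genes.

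Eda2r, a receptor of the tumour necrosis factor family that is a p53 target and rises in ageing muscle, stood at 6.16, 5.95, 4.83 and 5.22 in old control mice and at 6.66, 6.77, 6.49 and 6.08 in old KO mice. KO was higher within every number, and only KO 4 lay within the control range. The difference was 0.96 (SE 0.19, unadjusted p = 0.000143, adjusted p = 0.380), against 0.15 in young mice. Gadd45a, a stress gene induced by p53 and by denervation, stood at 8.59, 7.54, 6.38 and 6.62 against 7.65, 7.54, 9.33 and 8.86, so that numbers 3 and 4 were higher in KO and number 1 lower (difference 1.06, SE 0.48, unadjusted p = 0.0435). Of 15 measured senescence and p53 targets, Eda2r among them, 7 were higher and the list median was -0.03. The death receptor gene Tnfrsf10b was, with Eda2r, 1 of 2 higher members with an unadjusted p under 0.05, against 3.21% of all genes. Chrna1 and Myog, the acetylcholine receptor subunit and the myogenic factor that increase after loss of nerve input, differed by 0.40 (SE 0.14, unadjusted p = 0.0149) and 0.48 (SE 0.19, unadjusted p = 0.0259), each higher in 3 of 4 numbers. Together with Gadd45a they were the 3 of 22 genes of the neuromuscular junction and denervation list with an unadjusted p under 0.05, against 3.21% of all genes, and the list median was 0.004.

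Glycolysis and glycogen genes, abundant in the fast fibres that make up most of the quadriceps, were lower in 17 of 21 genes (median -0.08). Of these 8 had an unadjusted p under 0.05, 5 had KO arrays wholly below the control arrays and 10 were lower within 4 of 4 numbers, against 3.4%, 0.474% and 7.08% of all genes. The number medians were close to each other, from -0.10 to -0.07. Eno3, the muscle enolase, stood at 12.07, 12.08, 12.13 and 12.09 in control and at 11.96, 11.94, 11.98 and 12.00 in KO muscle, without overlap (difference -0.12, SE 0.03, unadjusted p = 0.00323). Pfkm, the muscle phosphofructokinase, differed by -0.09 (SE 0.03, unadjusted p = 0.00727), Pgam2, the muscle phosphoglycerate mutase, by -0.13 (SE 0.04, unadjusted p = 0.0110), and Ldha, a lactate dehydrogenase subunit, by -0.07 (SE 0.03, unadjusted p = 0.0404), each without overlap. The groups only just stood apart for Pgam2 (KO 4 at 11.734, control 3 at 11.735) and Ldha (KO 4 at 12.098, control 3 at 12.103). Pygm, the glycogen phosphorylase, differed by -0.08 (SE 0.03, unadjusted p = 0.0236). These differences are under 10% of the control level, at signals near the top of the array. Of the 9 fibre markers 6 were lower as well (median -0.02), 2 of them with an unadjusted p under 0.05, against 3.4% of all genes. Ckm had the largest fall among them, at -0.10. A general shift of bright fibre genes was not tested. Fbp2, the muscle fructose bisphosphatase, differed by -0.50 (SE 0.20, unadjusted p = 0.0245), with KO 4 lowest at 7.18. Pfkfb3, the enzyme that makes the activator of phosphofructokinase, went the other way, at 8.02, 9.04, 8.17 and 8.56 against 8.93, 9.25, 10.22 and 9.27 (difference 0.97, SE 0.35, unadjusted p = 0.0154), and its other probe set differed by 1.33.

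The fibre types of muscle differ in myosin and metabolism. Fast fibre genes were lower in 14 of 18 genes (median -0.05), 6 with an unadjusted p under 0.05 against 3.4% of all genes, and Eno3, Pfkm and Pgam2 are counted there too. Slow fibre genes were higher in 11 of 11 genes (median 0.70), 0 of them with an unadjusted p under 0.05, and the number medians were 4.20, -1.36, 0.25 and -0.01. Myh7, the slow myosin heavy chain, stood at 4.83, 10.15, 9.34 and 5.51 in control and at 10.63, 8.48, 10.17 and 6.16 in KO muscle (difference 1.40, SE 1.41, unadjusted p = 0.338). Control 1, control 4 and KO 4 were the low arrays. Without number 1 the difference was -0.07. Fatty acid oxidation genes and endothelial markers were also high in number 1, with medians of 0.44 and 0.57, against -0.31 and -0.10 in number 3. Actc1, the cardiac actin, stood at 10.30, 9.01, 10.31 and 9.67 against 9.63, 7.56, 9.25 and 8.65, lower in KO within 4 of 4 numbers (difference -1.05, SE 0.47, unadjusted p = 0.0404). Its list, of embryonic myosin, regeneration and stretch genes, went mostly the other way, with 14 of 19 genes higher (median 0.16). In that list 2 higher genes and 1 lower gene, Actc1, had an unadjusted p under 0.05, against 3.21% and 3.4% of all genes.

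Among lipid genes, Cpt1a, the liver-type isoform of the enzyme that admits fatty acids to mitochondria, stood at 5.51, 4.87, 4.67 and 5.03 in control and at 6.13, 5.90, 4.60 and 5.45 in KO muscle (difference 0.50, SE 0.14, unadjusted p = 0.00257). It was higher in 3 of 4 numbers, with KO 3 as the exception. Plin2, a lipid droplet coat protein, differed by 0.40 (SE 0.13, unadjusted p = 0.00923) and Pnpla2, the triglyceride lipase ATGL, by -0.31 (SE 0.11, unadjusted p = 0.0133). Each went the same way within 4 of 4 numbers. Of 21 lipid droplet and lipid synthesis genes 12 were higher (median 0.02). Plin2 was the 1 higher and Pnpla2 the 1 lower with an unadjusted p under 0.05, against 3.21% and 3.4% of all genes. Of 23 fatty acid oxidation and uptake genes 12 were higher (median 0.01), and only Cpt1a had such a p. Both lists thus lay near the shares of all genes. Adipoq, the adipocyte hormone adiponectin, spread from 5.52 to 8.80 in control and from 5.16 to 8.60 in KO muscle. Adipocyte markers had number medians of -0.16, 0.33, -0.11 and 0.24. Their part in the lipid genes was not tested.

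Outside the lists, the gene with the smallest p was Rnase2a, a ribonuclease of the eosinophil-associated family, at 3.33, 3.21, 3.30 and 3.23 in control and 4.03, 3.44, 4.32 and 3.87 in KO muscle. The groups did not overlap, at signals near the low end of the array (difference 0.65, SE 0.11, unadjusted p = 3.49e-05, adjusted p = 0.380). Without KO 2 it passed the adjusted threshold (difference 0.81, limma adjusted p = 0.00128), and over all alternatives its adjusted p ranged up to 1. Csrp1, a LIM protein of the cytoskeleton, differed by 0.46 (SE 0.11, unadjusted p = 0.000792). Among genes that were lower, Mpp3, a scaffold protein of cell junctions, stood at 8.13, 8.59, 8.04 and 8.23 against 7.76, 8.26, 7.45 and 7.81 (difference -0.43, SE 0.10, unadjusted p = 0.000523). Map7, which binds microtubules, stood at 5.25, 5.71, 5.41 and 5.23 against 4.97, 5.04, 5.14 and 4.84 without overlap (difference -0.40, SE 0.10, unadjusted p = 0.00113), and its 2 other probe sets were lower too.

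Whether genotype differences depended on age was tested as the difference between the old and the young comparison, which share no array. No gene passed (limma, 0 of 17097, 0%), and 1238 genes, or 7.24%, had an unadjusted p under 0.05. In young mice alone 0 genes passed as well (0%), and 1612, or 9.43%, had an unadjusted p under 0.05, of which 887 were higher in KO (5.19%) and 725 lower (4.24%). A KO minus control difference that was more positive in old than in young mice, with an unadjusted p under 0.05, was seen for 7 of 32 interferon genes, 8 of 18 antigen presentation genes, 5 of 27 immediate early genes and 7 of 33 cytosolic ribosomal proteins, against 595 of all genes (3.48%). In young mice these lists had medians of 0.07, 0.02, 0.03 and -0.06. The ribosomal count came with 0 genes at an unadjusted p under 0.05 in old mice and 7 lower ones in young mice. Adipocyte markers were more positive in old mice for 4 of 8 genes, with medians of 0.19 in old and -0.40 in young mice. In young mice 5 of the 8 were lower with an unadjusted p under 0.05. Genes of the integrated stress response and ATF4 target list were more positive for 4 of 27. Fusion and fission genes showed the opposite, with 6 of 26 more negative in old than in young mice, against 643 of all genes (3.76%), and a young median of 0.08. Tricarboxylic acid cycle genes had 5 of 24 more negative and 1 more positive. For Nlrc5 the difference between the ages was 1.17 (unadjusted p = 0.000223), for Tgtp1 1.80 (unadjusted p = 0.00833) and for Fos 2.23 (unadjusted p = 0.0216), each with an adjusted p of 0.641 or more. No listed pathway is therefore shown to differ between the ages.

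**Figure D5:**
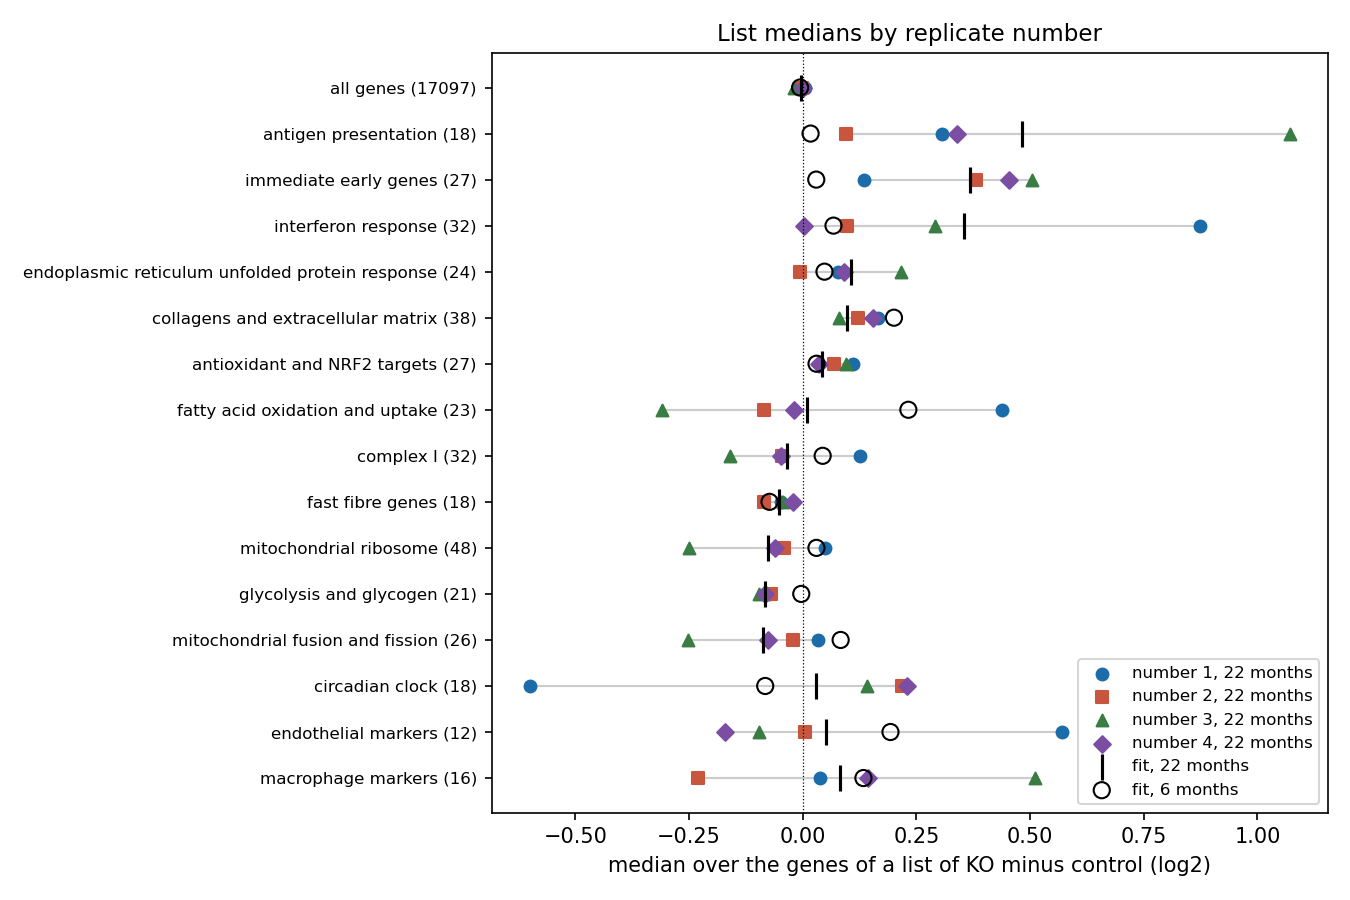
Median over the genes of a list of KO minus control (log2), for 15 lists and all genes, with the number of measured genes in brackets. Coloured points are the 4 replicate numbers at 22 months, black ticks the fitted medians at 22 months and open circles those at 6 months. Glycolysis medians lie within -0.10 to -0.07 in every number, whereas interferon medians spread from 0.00 to 0.87 and circadian clock medians from -0.60 to 0.23.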

How the data were processed

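The authors deposited log2 signals per probe set, made with RMA from Affymetrix arrays of 1 mouse each. RMA and affy are named in the submitters' processing notes, without versions. Per the labels' protocols, whole transcriptome amplification started from 25 ng of total RNA, followed by biotin labelling. RMA corrects background, quantile normalizes arrays and summarises probes, so a global shift between arrays would be removed. Of 45037 probe sets besides 104 controls, 28898 carried 1 symbol in the probe table supplied with the data.

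Groups follow the titles. All 16 arrays were fitted in limma 3.58.1 (R 4.3.3) with 1 mean per group and the replicate number as a block, empirical Bayes with a trend, two-sided tests, and adjustment by Benjamini and Hochberg over 17097 genes. The number was used as a pairing because, after removal of group means, all 24 pairs of arrays with the same number correlated at 0.289 or more. In the old pairs the correlations were 0.442, 0.757, 0.773 and 0.469. The labels do not say what the number marks. The genotype labels mark separate mice, 4 per group.

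The comparison, the 49 gene lists (36 of pathways, 13 of cell types) and the members named were chosen with earlier results of these data known, so lists serve as description and no set test was run. Named were Mfn2, the 15 genes with the smallest p in each direction, up to 6 members with the smallest p of each list and any fusion, fission or mitophagy gene, and the text gives a selection of these. Motifs other than the interferon response element were chosen after seeing the lists. Promoters come from RefSeq (GRCm38.p6). Figures were drawn with matplotlib 3.10.9. Alternatives are given in the closing section.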

Additional observations from a re-analysis of the deposited data

Results flagged for a closer look

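In 4 of 132 groups of 4 mice examined (66 genes, control and KO), 1 array stood further from the nearest other than Dixon's critical value of 0.829 of the range allows. Chance flags about 1 group in 20. Mfn2 in old KO 3 was 6.317, with the other KO mice between 8.01 and 8.32. Adipoq in old KO 3 was 5.161, with the others between 8.46 and 8.60. Jund in old KO 3 was 7.998, with the others between 8.19 and 8.23. Chrna1 in old KO 4 was 6.136, with the others between 6.42 and 6.47. Of the 4, 3 belong to old KO 3.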

How the results depend on the processing

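All 22 alternatives gave 0 genes lower in old KO muscle past the adjusted threshold. Leaving out 1 replicate number or 1 old array gave 0 to 1 genes higher and 0 to 4 with a difference between the ages. The gene higher was Rnase2a, without replicate 2 and without old KO replicate 2, and the 4 of the age difference, without replicate 1, were Cebpa, Hp, Rassf3 and Retn, chosen for mention after their values were seen. Rnase2a was also the 1 gene with an age difference without old KO replicate 2 (0.81, limma adjusted p = 0.0381). Without the replicate block, genes at an unadjusted p under 0.05 numbered 103 higher and 92 lower (549 and 582 with it), 0 passed, and the median SE was 0.157 against 0.0923. The block changed no call. With family in the fit they numbered 327 and 255. Among genes with a mean level of at least 5 (9117 genes) they numbered 278 and 318. The Mfn2 difference kept its sign in all alternatives, from -1.18 to -0.40.

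Of 66 genes described, 60 kept their sign in every alternative. With family in the fit Fbxo32 was -0.071 and Trim63 -0.062. Leaving out 1 number or array gave Mfn1 from -0.022 to 0.20, Myh7 from -0.066 to 2.42, Opa1 from -0.17 to 0.0097 (0.0055 without replicate 3) and Fbxo32 from -0.0047 to 0.22. Without old KO arrays 1 and 3, chosen after seeing the data, Opa1 was 0.069, Pink1 0.032 and Myh7 -1.01. With numbers 1 and 4 alone, also chosen then, Fbxo32 was -0.067. The causes were not tested. Of 1051 list medians under alternatives, 42 moved by more than the SD of the 4 numbers. Signals near the lower and upper end of the array limit what Pld6, Rnase2a and the glycolytic genes can show.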

Other observations

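Of 33 measured genes of cytosolic ribosomal proteins, 30 had a higher mean in old KO than in old control muscle, by a median of 0.04 and at most 0.22. Of these 0 had an unadjusted p under 0.05 (3.21% of all genes in that direction) and 10 were higher within 4 of 4 numbers (6.46% of all genes). In young mice the list median was -0.06, and 7 genes had an unadjusted p under 0.05 in the lower direction.

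Markers of tenocytes, the cells of tendon, were higher in 7 of 8 genes (median 0.28), with medians of 0.23, -0.40, 0.38 and 1.15 in numbers 1 to 4. Markers of B and plasma cells were higher in 8 of 8 genes (median 0.11), 1 of them with an unadjusted p under 0.05 (3.21% of all genes in that direction). Satellite cell markers were higher in 3 of 8 genes (median -0.04) and lysosomal genes in 16 of 26 (median 0.04).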
